A study of Mus musculus with 6 samples.

Results

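The genes described here encode the mitochondrial respiratory chain: the subunits of complexes I to IV and of ATP synthase, which is counted as complex V. They were chosen by a rule on their symbols that uses no measured value, although earlier results of these data were known when it was set. Of the 48587 genes in the deposited table, 101 had a symbol of these families, 6 of them carried the pseudogene suffix -ps and were left out, and 95 remained. Of the 95, 82 lie in the nuclear genome and 13 in the mitochondrial genome. The table held raw fragment counts of 6 libraries from mouse kidney, all pulldowns of ribosomes that carry an HA tag. The 3 neonatal littermate controls were Cdh16Cre;Foxp1fl/+;RiboTag, so they carried 1 floxed allele of Foxp1, a forkhead transcription factor gene. The 3 Foxp1-deficient libraries were Cdh16Cre;Foxp1fl/fl;RiboTag, with both alleles floxed. Cre and RiboTag, the allele that tags a protein of the cytosolic ribosome after Cre has acted, were thus shared by all 6 libraries, and the Cre driver was Cdh16, which encodes a cadherin of tubule epithelium. The treatment label also differed, being vehicle for controls and chronic acid load for Foxp1-deficient libraries, while the protocols described no acid load, so genotype and treatment cannot be told apart. Whether replicates were separate animals is not in the labels, so p-values speak only of the spread among these 6 libraries, and that spread may be technical.

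The respiratory chain moves electrons from NADH and succinate to oxygen, pumps protons across the inner mitochondrial membrane, and lets ATP synthase make ATP from that gradient. Complexes I, III, IV and V are built from subunits of both genomes, whereas complex II is wholly nuclear. Nuclear subunit mRNAs are translated on cytosolic ribosomes and the proteins are imported, while the mRNAs of mitochondrial DNA stay inside the organelle and are read there by ribosomes of a different make. Kidney tubules rely heavily on oxidative phosphorylation for ion transport. The tag sits on the cytosolic ribosome, and the labels say that beads were added to a supernatant from which mitochondria had been spun down.

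Promoters of nuclear respiratory chain genes are known for sites of NRF1, of the ETS factor GABPA (also called NRF2) and of YY1. RefSeq promoter windows (GRCm38.p6, 300 bases each, from 250 before the start to 50 after it) were at hand for 69 of the 82 nuclear genes. The NRF1 core, searched as GCGCATGC or GCATGCGC, occurred in 10 of the 69 windows (14.5%), against 3.46% of 19669 windows of the same kind. The GABPA core, CCGGAAG or CTTCCGG, occurred in 15 (21.7%, against 11.3%), and the YY1 core, AAGATGGC or GCCATCTT, in 10 (14.5%, against 3.12%). NRF1 and GABPA cores stood together in 5 windows (7.25%, against 0.681%). Of the 10 windows with a YY1 core, 7 belonged to genes named for complex I and 3 to genes with an Atp5 symbol (Atp5f1, Atp5j2 and Atp5sl). In all 10 the YY1 core spanned the start or lay in the 50 bases after it. The 250 bases before the start are shown for 3 genes that stand for cases met with the NRF1 and GABPA cores and that lack a YY1 core. Atp5l, the gene of ATP synthase subunit g, has an NRF1 and a GABPA core there (chr9:44920743-44920992, minus strand). Ndufa6, a complex I accessory subunit gene, has an NRF1 core only (chr15:82354292-82354541, minus strand). Cox8a, a complex IV subunit gene with the lowest p of the nuclear genes in a paired fit given further on, has no whole core before its start (chr19:7217617-7217866, minus strand), and of the 2 GABPA cores in its window one spans the start and the other lies after it. Capitals mark the cores found.
Atp5l: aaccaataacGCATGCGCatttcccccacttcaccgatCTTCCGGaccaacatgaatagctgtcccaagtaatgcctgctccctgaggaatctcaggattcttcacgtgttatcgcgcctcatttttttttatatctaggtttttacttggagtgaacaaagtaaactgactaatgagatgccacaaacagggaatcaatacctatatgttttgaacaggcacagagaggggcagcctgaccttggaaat
Ndufa6: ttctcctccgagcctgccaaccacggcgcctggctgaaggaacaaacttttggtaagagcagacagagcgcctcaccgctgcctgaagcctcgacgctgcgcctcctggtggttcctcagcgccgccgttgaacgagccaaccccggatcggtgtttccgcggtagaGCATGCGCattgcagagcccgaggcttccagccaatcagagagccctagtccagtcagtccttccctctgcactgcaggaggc
Cox8a: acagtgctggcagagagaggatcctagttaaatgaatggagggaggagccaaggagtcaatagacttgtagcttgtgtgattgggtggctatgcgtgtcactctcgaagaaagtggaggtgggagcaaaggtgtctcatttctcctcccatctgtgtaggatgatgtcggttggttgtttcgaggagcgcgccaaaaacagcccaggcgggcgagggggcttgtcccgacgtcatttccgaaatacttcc
These matches describe letters in a window and show no binding.

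Library totals ran from 9710048 to 18958196 counts. Rows of ribosomal RNA type (Rn18s-rs5, Gm23935, Gm26917 and Lars2) held 6.65% and 8.72% of the control and Foxp1-deficient counts numbered 2 and from 1.49% to 2.85% elsewhere, so the libraries numbered 2 stood apart. The labels give the cells as kidney tubular cells, and the tubule markers were low in most libraries. The 8 proximal tubule markers summed to 37.0, 67.1 and 331.2 CPM across controls and to 63.9, 143.4 and 448.4 CPM across Foxp1-deficient libraries. CPM here are counts relative to a library total scaled by TMM, and a triplet of values gives libraries 1, 2 and 3 of a group in that order. The 5 markers of thick limb and distal tubule summed to 0.332, 12.4 and 204.9 CPM across controls and to 1.36, 2.42 and 226.5 across Foxp1-deficient libraries, with Umod, the defining gene, at 0 in controls 1 and 2 and Foxp1-deficient 2. The 6 stromal markers summed to 4123 to 19665 CPM over the 6 libraries. In such bulk libraries, fewer cells of a type and less RNA per cell cannot be told apart. Foxp1 itself (chromosome 6, 98925338 to 99522721) had 48.8, 30.8 and 35.9 CPM across controls and 34.6, 11.3 and 29.3 CPM across Foxp1-deficient libraries. It was lower in Foxp1-deficient than in control libraries at each number, the groups overlapped, and the log2 fold change (Foxp1-deficient over control, as throughout) was -0.62 (SE 0.49, edgeR unadjusted p = 0.246, adjusted p = 0.9998). With the replicate number as a block in the fit it was -0.72 (SE 0.28, edgeR unadjusted p = 0.0496, adjusted p = 0.853). Exons outside the floxed part and cells without Cre also give Foxp1 counts, so this checks the genotype only in part.

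The 13 mitochondrially encoded genes were present in every library, although the pulldown targets cytosolic ribosomes. Together they took 1.57%, 0.810% and 2.55% of all counts across controls and 1.33%, 1.58% and 2.74% across Foxp1-deficient libraries. The 2 ribosomal RNAs of the mitochondrion took 0.105%, 0.247% and 0.0760% across controls and 0.0732%, 0.403% and 0.139% across Foxp1-deficient libraries, so they were highest in the libraries numbered 2, where the mRNAs were not. The source of the mitochondrial reads in these pulldowns was not tested.

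Along the mitochondrial genome the levels formed 3 blocks. Per length, as TPM (counts per exon length relative to their sum in the library), mt-Nd1, mt-Nd2 and mt-Co1 at one end and mt-Nd4, mt-Nd5, mt-Nd6 and mt-Cytb at the other had 701 to 16736 TPM in single libraries. The 6 genes in between, mt-Co2, mt-Atp8, mt-Atp6, mt-Co3, mt-Nd3 and mt-Nd4l, had 0.554 to 192 TPM and took 0.496% to 1.90% of the 13 genes' counts. mt-Co1, the catalytic subunit of cytochrome c oxidase, averaged 8336 TPM over the 6 libraries, while mt-Co2 and mt-Co3, its partners in the same core, averaged 131 and 74.8 TPM. The drop in counts began after mt-Co1 and ended before mt-Nd4 in all 6 libraries, but most of the genes in it have uncertain counts, as described next.

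**Figure D1:**
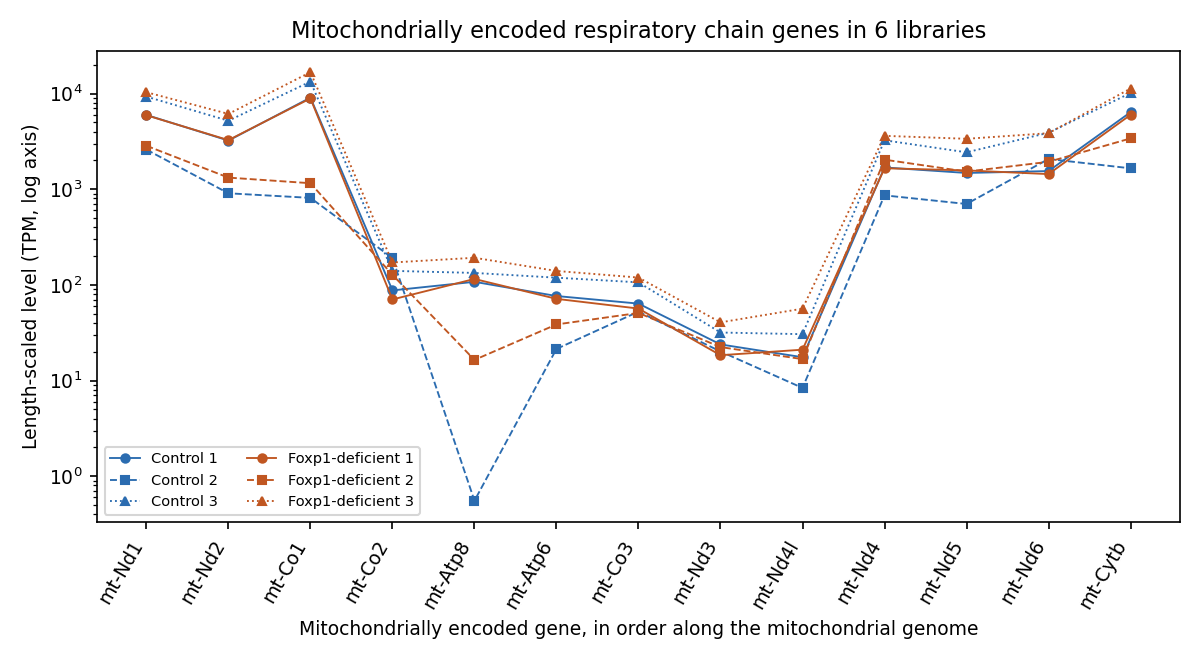
Length-scaled level (TPM, log axis) of the 13 mitochondrially encoded genes in order along the mitochondrial genome, 1 line per library, with controls in blue and Foxp1-deficient libraries in orange. In all 6 libraries the 6 genes from mt-Co2 to mt-Nd4l lie between 0.554 and 192 TPM, below the other 7, and the libraries numbered 2 (squares) have a low mt-Co1. Counts of the low genes that have a copy on chromosome 1 are uncertain.

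A stretch of nuclear chromosome 1 bears on these 6 levels. From 24616197 down to 24611535 (mm10) the table lists Gm29216, Gm28661, Gm10925, Gm28437, Gm28438, Gm10222 and Gm28439 on the minus strand, in an order that mirrors mt-Co1, mt-Co2, mt-Atp6, mt-Co3, mt-Nd3, mt-Nd4l and mt-Nd4. The mouse reference is known to hold a nuclear copy of part of the mitochondrial genome there. Lengths of the 5 middle genes differ from those of their mitochondrial counterparts by 1 to 3 bases, and the mitochondrial gene had 0.326 to 4.33 times the counts of its copy. At the ends, where Gm29216 is 1053 bases shorter than mt-Co1 and Gm28439 is 502 bases shorter than mt-Nd4, the mitochondrial gene had at least 39.9 times the counts. The counting command in the file header sets no option to count reads that fit several places, so the counts of the 5 middle genes are uncertain. The drop described above is uncertain with them and is not read as a difference in RNA level. How much of it comes from such reads was not tested. mt-Atp8, which has no row of its own on chromosome 1, lies between mt-Co2 and mt-Atp6 and had a level as low as theirs.

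Between groups, 0 of the 13 mitochondrially encoded genes passed the test, in which 0% of the 14311 genes tested passed and 103 (0.72%) had an unadjusted p under 0.05 (edgeR quasi-likelihood test, Benjamini-Hochberg adjusted p under 0.05). None of the 13 had an unadjusted p under 0.05. This test recovered 0% of 4-fold changes on data simulated after these libraries, with effects of the library number built in. That 0 passed therefore does not show that the genes were unchanged. Log2 fold changes were above 0 for 12 and below 0 for 1, mt-Co2 (for 11 and 2 when scaled by upper quartiles or library totals, where mt-Nd6 was also below 0), with a median of 0.21 against 0.033 over all genes tested. In complex I, mt-Nd5, a core subunit of the proton-pumping arm, had 1102, 1189 and 1735 CPM across controls and 1014, 3287 and 2131 CPM across Foxp1-deficient libraries. Foxp1-deficient 2 was the highest of the 6 libraries, the groups overlapped, and the log2 fold change was 0.68 (SE 0.54, edgeR unadjusted p = 0.252, adjusted p = 0.9998), the lowest p of the 13. mt-Nd4, of the same arm, had 951, 1106 and 1752 CPM across controls and 807, 3310.2 and 1729.5 CPM across Foxp1-deficient libraries, again with the highest value in Foxp1-deficient 2 and overlapping groups. Its log2 fold change was 0.62 (SE 0.60). For mt-Nd4l it was 0.79 (SE 0.79), for mt-Nd2 0.21 (SE 0.50), for mt-Nd3 0.20 (SE 0.76), for mt-Nd1 0.090 (SE 0.46) and for mt-Nd6 0.016 (SE 0.66). mt-Nd6 lies on the other strand, overlaps mt-Nd5 by 14 bases, and was counted without regard to strand.

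mt-Cytb, the cytochrome b of complex III, had 2984, 1759.6 and 4536 CPM across controls and 2424, 4584 and 4484 CPM across Foxp1-deficient libraries, with groups that overlapped, and its log2 fold change was 0.31 (SE 0.54). In complex IV, mt-Co1 had 5719, 1166 and 8076 CPM across controls and 4859.8, 2106 and 8976 CPM across Foxp1-deficient libraries. The low values were those of the libraries numbered 2 in both groups, and the log2 fold change was 0.092 (SE 0.82). mt-Co1 made up 38.5%, 12.2% and 35.7% of the 13 genes' counts across controls and 38.5%, 10.8% and 37.7% across Foxp1-deficient libraries, so its share followed the library number and not the group. For mt-Co2 and mt-Co3 the log2 fold changes were -0.19 (SE 0.80) and 0.060 (SE 0.50). The ATP synthase genes mt-Atp6 and mt-Atp8 share 43 bases and had log2 fold changes of 0.29 (SE 0.47) and 0.39 (SE 1.21), the latter with 135, 1 and 219 counts across controls and 147, 31 and 297 across Foxp1-deficient libraries, so that control 2 rests on a single count.

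The 82 nuclear genes spanned a wide range of levels. Averaged over libraries, 51 had over 100 TPM and 9 had under 10 TPM, with a median of 135 TPM, against a median of 1846 TPM for the 13 mitochondrial genes. The latter median includes the genes of uncertain count between mt-Co1 and mt-Nd4. By complex, as assigned by symbol alone, the medians were 109 TPM for the 37 genes of complex I, 105 for the 4 of complex II, 189 for the 8 of complex III, 180.3 for the 16 of complex IV and 198 for the 17 of complex V. Cox6a1, the widely expressed isoform of a small complex IV subunit, was the highest at 1453 TPM. Of the 82, 79 had enough counts to be tested, and Cox7b2, Cox8b and Cox8c did not. Exons of 33 of the 95 genes overlap another gene's, by over 20% of their length for Ndufb6, Ndufa13, Cox5a and mt-Atp8, and these counts are uncertain to that extent.

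Between groups, 0 of the 79 nuclear genes passed, with 0 at an unadjusted p under 0.05 (background as above, 0% and 0.72%). Log2 fold changes were below 0 for 46 and above 0 for 33, with a median of -0.084, and 46.4% of all genes tested were below 0. A count of 0 with 3 libraries per group does not show that the genes were unchanged. The groups did not overlap for 1 of the 79, Atp5c1, which was lower in Foxp1-deficient libraries (1 in 79, where 2.11% of all genes tested were lower without overlap and 2.64% higher).

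Complex I takes electrons from NADH, and 18 of its 37 nuclear genes had log2 fold changes below 0. Ndufc2, an accessory subunit of the membrane arm (chromosome 7, 97400003 to 97407802), had 58.2, 81.0 and 66.9 CPM across controls and 46.2, 31.7 and 62.5 CPM across Foxp1-deficient libraries. Control 2 was the highest and Foxp1-deficient 2 the lowest, the groups overlapped, and the log2 fold change was -0.55 (SE 0.38, edgeR unadjusted p = 0.184, adjusted p = 0.9998), the lowest p of the nuclear genes. Ndufa4 (chromosome 6, 11900292 to 11907497), named for complex I but now regarded as a complex IV subunit, had 124, 374 and 156 CPM across controls and 81.9, 206 and 131 CPM across Foxp1-deficient libraries. It was lower in Foxp1-deficient than in control libraries at each number, while the groups overlapped and the libraries numbered 2 were the highest of each group. The log2 fold change was -0.64 (SE 0.56, edgeR unadjusted p = 0.287, adjusted p = 0.9998). Ndufa7, an accessory subunit of the matrix arm (chromosome 17, 33824591 to 33838316), had 57.5, 187 and 63.8 CPM across controls and 37.5, 125 and 51.9 CPM across Foxp1-deficient libraries and showed the same order. Its log2 fold change was -0.52 (SE 0.65). Ndufa2, another accessory subunit and the most abundant nuclear complex I gene per length, had 42.7, 546 and 50.5 CPM across controls and 32.9, 763 and 45.1 CPM across Foxp1-deficient libraries. Nearly all of its mean came from the libraries numbered 2, and the log2 fold change of 0.40 (SE 1.42) had an error larger than itself. Ndufb2 was the lowest of the complex at 1.84 TPM, with 53 to 119 counts per library over an exon length of 5628 bases. Whether its reads also fit other places was not tested.

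Complex II, succinate dehydrogenase, is the smallest set, and 3 of its 4 genes had log2 fold changes below 0. Sdha, its flavoprotein (chromosome 13, 74322254 to 74350280), had 242, 155 and 188 CPM across controls and 206, 158 and 189 CPM across Foxp1-deficient libraries. The groups overlapped and no library stood far out. The log2 fold change was -0.084 (SE 0.35), and for the membrane anchors Sdhc and Sdhd it was -0.19 (SE 0.34) and -0.013 (SE 0.45). Sdhd was the most abundant of the complex at 220.1 TPM.

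Complex III hands electrons to cytochrome c, and 6 of its 8 nuclear genes had log2 fold changes below 0. Uqcrq, a small subunit (chromosome 11, 53427922 to 53430831), had 98.1, 697 and 130.0 CPM across controls and 80.2, 405 and 104 CPM across Foxp1-deficient libraries. The Foxp1-deficient library was the lower one of each number, but the libraries numbered 2 lay far above the rest in both groups. The log2 fold change was -0.65 (SE 0.93, edgeR unadjusted p = 0.504, adjusted p = 0.9998). Uqcrfs1, the Rieske iron-sulfur subunit, had 82.3, 64.1 and 88.7 CPM across controls and 78.7, 42.6 and 83.1 CPM across Foxp1-deficient libraries, with the libraries numbered 2 the lowest of each group and a log2 fold change of -0.20 (SE 0.38). Uqcrc1, a core protein, had 191, 537 and 168 CPM across controls and 179.9, 884 and 135 CPM across Foxp1-deficient libraries and a log2 fold change of 0.42 (SE 0.83). Its groups overlapped, Foxp1-deficient 2 was the highest library, and without it the log2 fold change was -0.91. Uqcr10, a small subunit, was the most abundant nuclear gene of the complex at 455 TPM and had a log2 fold change of -0.0090 (SE 0.95).

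Complex IV, cytochrome c oxidase, reduces oxygen. Of its 13 nuclear genes tested, 7 had log2 fold changes below 0. Cox8a, the ubiquitous isoform of the smallest subunit (chromosome 19, 7215158 to 7217616), had 155, 541 and 218 CPM across controls and 93.6, 236 and 175 CPM across Foxp1-deficient libraries. Each Foxp1-deficient library was below the control of the same number, with the widest gap between the libraries numbered 2, and the groups overlapped. The log2 fold change was -0.86 (SE 0.59, edgeR unadjusted p = 0.189, adjusted p = 0.9998). Cox7c had 97.5, 162 and 125 CPM across controls and 64.1, 143 and 105 CPM across Foxp1-deficient libraries, again lower in Foxp1-deficient than in control libraries at each number, with a log2 fold change of -0.30 (SE 0.42). For Cox7b it was -0.36 (SE 0.48). Cox6a1 had 235, 1683 and 319 CPM across controls and 179, 1919.7 and 272 CPM across Foxp1-deficient libraries, with the libraries numbered 2 far above the others, overlapping groups and a log2 fold change of 0.084 (SE 1.09).

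Several complex IV and ATP synthase subunits come as isoforms of different tissues, and their levels show which set these libraries held. Cox4i1, the general isoform of subunit 4, which the symbol rule did not take, averaged 446 TPM, and Cox4i2, known from lung and from low oxygen, 2.12 TPM. Cox6a1 was at 1453 TPM and Cox6a2, the heart and skeletal muscle isoform, at 3.55 TPM. Cox7a2 was at 303 TPM, Cox7a2l, a factor of supercomplex assembly, at 204 TPM, and Cox7a1, the muscle isoform, at 4.60 TPM. Cox6b1 was at 607 TPM and Cox6b2, the testis isoform, at 13.4 TPM. Cox8b, of muscle and brown fat, and Cox8c, of testis, had 0 counts in all 6 libraries, against 760.4 TPM for Cox8a. A count of 0 allows up to 3 counts, or 0.137 to 0.382 CPM in single libraries. Cox7b2 reached at most 1 count per library, against 164 TPM for Cox7b. Ndufa4l2, an isoform known to be induced by low oxygen, was at 7.35 TPM, against 228 TPM for Ndufa4. The c-ring genes Atp5g1, Atp5g2 and Atp5g3, which encode the same mature protein, were at 74.2, 250.3 and 255 TPM. These values rest on exon lengths of 4912, 1675 and 2181 bases. Without regard to length, the means were 253, 258 and 325 CPM in controls and 193, 351 and 284 CPM in Foxp1-deficient libraries. The order of the 3 thus depends on the length used. Markers of cardiac and skeletal muscle summed to 388 to 1606 CPM, mostly Tnnt2 and Actc1, while Ckm and Mb, which mark mature muscle, were at or near 0.

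Complex V makes ATP, and 12 of the 17 nuclear genes placed with it by their Atp5 symbol had log2 fold changes below 0. Atp5c1, the gamma subunit of the rotating stalk (chromosome 2, 10056016 to 10080510), had 177, 232 and 199 CPM across controls and 157, 172 and 167 CPM across Foxp1-deficient libraries. All 3 controls lay above all 3 Foxp1-deficient libraries, with the control mean at 203 ± 27.7 and the Foxp1-deficient mean at 165 ± 7.24 CPM (SD, n = 3 each). The log2 fold change was -0.29 (SE 0.33, edgeR unadjusted p = 0.396, adjusted p = 0.9998). Atp5b, the catalytic beta subunit and the most abundant ATP synthase gene at 532 TPM, had 1197, 1294 and 1025 CPM across controls and 1157, 868 and 896 CPM across Foxp1-deficient libraries. It was lower in Foxp1-deficient than in control libraries at each number, the groups overlapped, and the log2 fold change was -0.27 (SE 0.39). Atp5j, coupling factor 6, had a log2 fold change of -0.32 (SE 0.41). Atp5s, a coupling factor gene rather than a subunit of the enzyme, had 4.78, 4.10 and 3.06 CPM across controls and 2.43, 12.6 and 3.94 CPM across Foxp1-deficient libraries and a log2 fold change of 0.66 (SE 0.81), with Foxp1-deficient 2 above the other 5 libraries.

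The contrast between the genomes was largest between library numbers, not between groups. Nuclear genes took 0.865%, 2.09% and 0.981% of all counts across controls and 0.719%, 2.05% and 0.866% across Foxp1-deficient libraries. At each number the control share was the higher one, but for number 2 this turned with the total used: outside ribosomal RNA type and mitochondrial rows it was 2.27% in control 2 and 2.30% in Foxp1-deficient 2, and the TMM-scaled sums were 24742 and 25382 CPM. The ratio of mitochondrial to nuclear counts was 1.81, 0.387 and 2.60 across controls and 1.85, 0.768 and 3.16 across Foxp1-deficient libraries. It was higher in the Foxp1-deficient library of each number, and the groups overlapped.

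**Figure D2:**
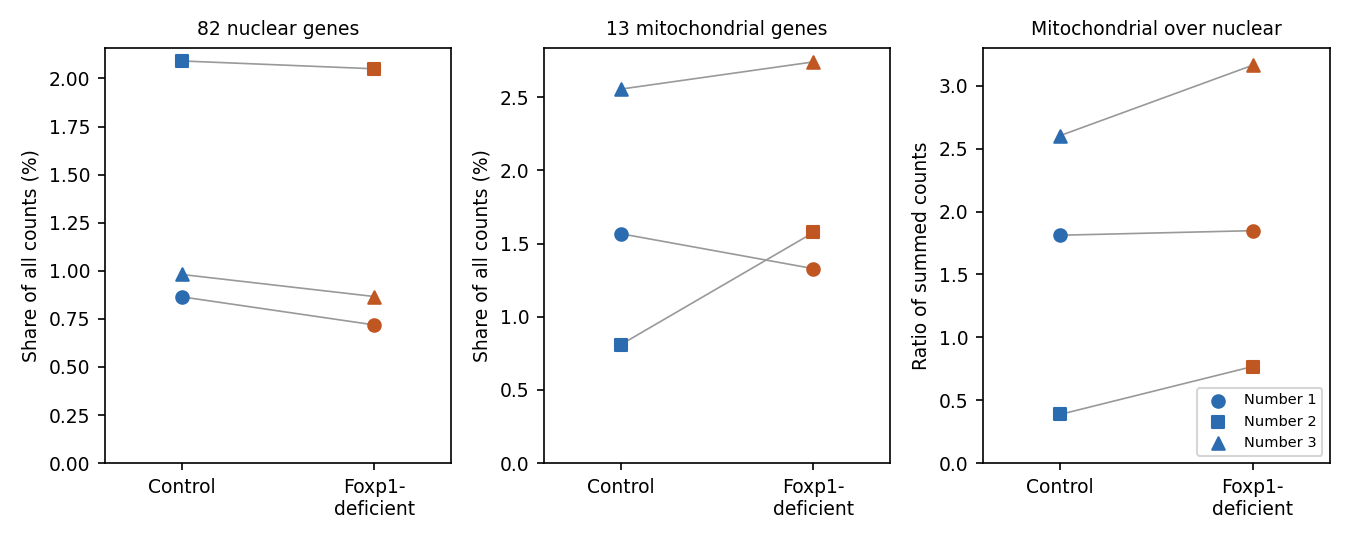
Share of all counts on the 82 nuclear genes (left, %), on the 13 mitochondrially encoded genes (middle, %) and the ratio of their summed counts (right), 1 point per library, with lines joining libraries of the same number. The nuclear share is 2.05% to 2.09% for number 2 and does not pass 0.981% elsewhere, and all 3 lines slope up on the right. On the left all 3 slope down on this scale, while that of number 2 would rise, from 2.27% to 2.30%, with ribosomal RNA type and mitochondrial rows left out of the total.

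In both groups the library numbered 2 held more nuclear respiratory chain RNA than the mean of the other libraries. This was so in both groups for 71 of 79 nuclear genes, or 89.9%. The share was 32.2% of all genes tested and 36.4% of those with a mean of at least 10 CPM. Median log2 differences of the 79 were 1.74 in controls and 1.91 in Foxp1-deficient libraries. The size varied widely by gene. Ndufa2, Ndufb7, Ndufa3 and Atp5e stood 11.7 to 15.3 times higher in the libraries numbered 2, whereas Ndufs1, the largest iron-sulfur subunit of complex I, and Uqcrc2, a complex III core protein, stood at 0.344 and 0.429 times the level of the others. These 6 were named after their values were seen. Genes that were lower in both groups numbered 5: Ndufs1, Uqcrc2, Uqcrfs1, Atp5j and Sdha. Of the 13 mitochondrial genes 4 were higher in both groups and 3 lower in both. The rise was not particular to the respiratory chain. Mitochondrial ribosomal protein genes summed to 2632, 7205 and 2754 CPM across controls and 2360, 7326 and 2367 across Foxp1-deficient libraries. Citric acid cycle genes did not rise alike, at 1956, 1986 and 1889 CPM and at 2007, 1664 and 1756. Across the 79 nuclear genes the difference between library 2 and the others had a Spearman correlation of -0.33 with gene length in both groups, a description over genes of the same 6 libraries. It was -0.32 over all genes tested, and -0.45 in controls and -0.43 in Foxp1-deficient libraries over those with a mean of at least 10 CPM. The higher share of ribosomal RNA type rows in the same 2 libraries stands beside this, and its part in the result was not tested.

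**Figure D3:**
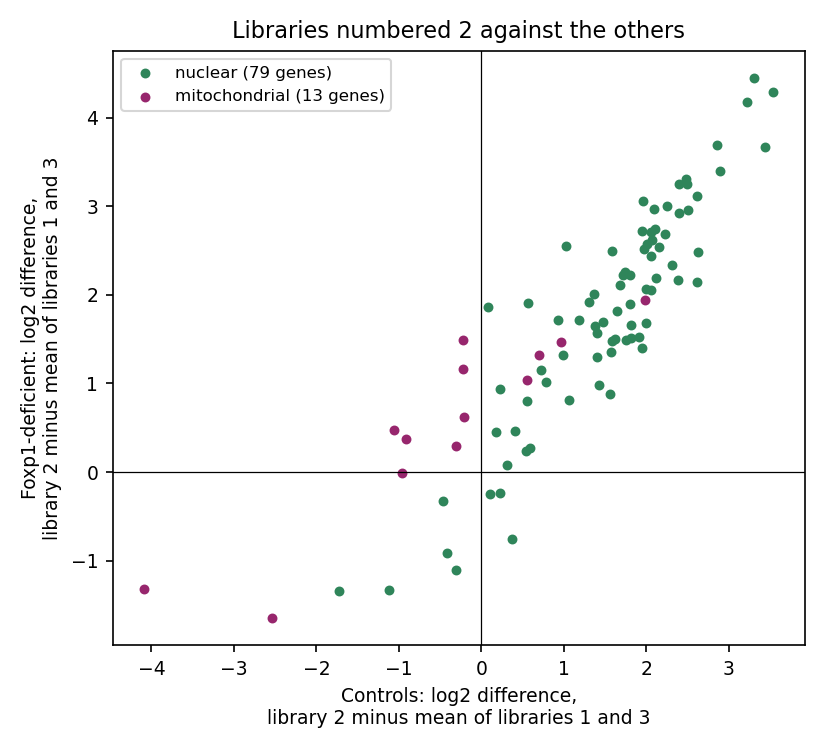
Difference in log2(CPM + 0.5) between library 2 and the mean of libraries 1 and 3, for controls (horizontal) and Foxp1-deficient libraries (vertical), 1 point per gene, with 79 nuclear genes in green and 13 mitochondrially encoded genes in purple. Most nuclear genes (71 of 79) lie in the upper right, where both differences are above 0, while 4 of the 13 mitochondrial genes do.

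Set against the library of the same number, the nuclear genes were mostly lower in Foxp1-deficient libraries 1 and 3 and not in 2. In pair 1, 74 of 79 were lower (background 49.6% of all genes tested), in pair 2, 35 (background 46.4%), and in pair 3, 73 (background 51%). The median log2 differences were -0.38, 0.035 and -0.21, and the one in pair 2 was -0.030 when scaled by library totals. Other scalings gave 74 to 76, 32 to 43 and 72 to 74 lower. All 3 pairs were lower for 31 of 79 nuclear genes (39.2%, background 16%) and higher for 0 (background 16.5%). The 31 come from complexes I, III, IV and V and none from complex II. Mitochondrially encoded genes were lower for 12, 1 and 5 of 13 in pairs 1, 2 and 3, with medians of -0.24, 0.89 and 0.064, and for 1 gene in pair 3 when scaled by library totals. Thus most genes of both sets were lower in pair 1, whereas 12 of 13 mitochondrial and 44 of 79 nuclear genes were higher in pair 2, and 8 of 13 mitochondrial genes but 6 of 79 nuclear genes were higher in pair 3. Summed markers of some cell types went the same way in all 3 pairs, and those of others did not. Of the macrophage markers, a cell type of the interstitium, 6 of 6 were lower in all 3 pairs (background 16%). Macrophage markers summed to 272, 448 and 918 CPM across controls and 49.8, 277 and 447 across Foxp1-deficient libraries. Summed markers of cardiac and skeletal muscle were also lower in each pair, at 1331, 1606 and 571 CPM across controls and 1021, 524 and 388 across Foxp1-deficient libraries, although only 2 of the 6 tested were lower in all 3. Mesothelial markers (the cells that cover the organ) summed to 1541, 1854 and 1428 CPM across controls and 1919, 4407 and 2441 across Foxp1-deficient libraries, higher in each pair, as was the sum of the proximal tubule markers given above. Of these, 2 of 4 mesothelial and 2 of 6 tested proximal tubule markers were higher in all 3 pairs. Other sums went both ways. Stromal markers summed to 12185, 6954 and 19197 CPM across controls and 12149, 4123 and 19665 across Foxp1-deficient libraries. For endothelium they were 142, 65.0 and 106 against 132, 120 and 136, and for erythroid cells 764, 1099 and 250 against 612, 1241 and 597. Sums for collecting duct and for thick limb and distal tubule also went both ways. The part of these cell types in the result was not tested.

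**Figure D4:**
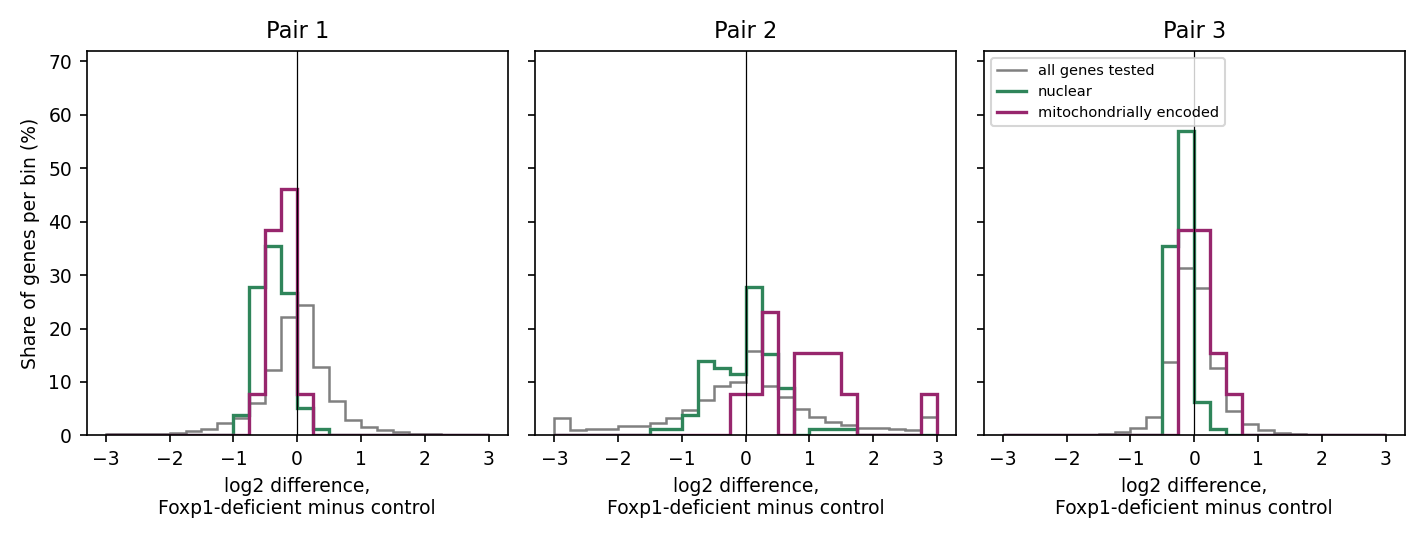
Share of genes (%) by log2 difference between the Foxp1-deficient and the control library of the same number, in bins of 0.25, for all 14311 genes tested (grey), 79 nuclear (green) and 13 mitochondrially encoded genes (purple), with values beyond 3 in the end bins. The nuclear genes sit left of 0 in pairs 1 and 3 (74 and 73 of 79 lower) and spread to both sides in pair 2 (35 lower), where 12 of 13 mitochondrial genes are right of 0.

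With the replicate number as a block in the edgeR fit, 69 of 79 nuclear genes had log2 fold changes below 0, against 46 without it and 50.5% of all genes tested, with a median of -0.21. Of the 79, 12 had an unadjusted p under 0.05, all lower (15.2%, background 2.26% of all genes lower at that p), and 0 passed after adjustment, with a lowest adjusted p of 0.853. They were Cox8a, Cox5b and Cox6c of complex IV, Ndufa4, Ndufa7, Ndufa8, Ndufb3, Ndufb5 and Ndufb6 among those named for complex I, Uqcrq of complex III, and Atp5k and Atp5o, the subunit e and stalk protein genes of ATP synthase. Cox8a had a log2 fold change of -0.74 (SE 0.20, edgeR unadjusted p = 0.0139, adjusted p = 0.853). Ndufa7, at -0.52 (SE 0.65) without the block, was at -0.50 with it (SE 0.14, edgeR unadjusted p = 0.0160, adjusted p = 0.853). The errors given above without the block thus also hold the spread between library numbers. Of the 13 mitochondrially encoded genes 10 were above 0 and 3 below, and 0 had an unadjusted p under 0.05, where 5.32% of all genes did in either direction. DESeq2 with the block called 169 of 14311 genes (1.18%), among them 1 of the 79, Cox8a, at a log2 fold change of -0.74 (adjusted p = 0.0445, Benjamini-Hochberg). On data simulated after these libraries, DESeq2 with the block made many more false calls than edgeR or limma-voom with it, so this call has less weight than its adjusted p. No member was among the 0.0419% of genes that DESeq2 called without the block or the 0.0559% that limma-voom called with it.

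**Figure D5:**
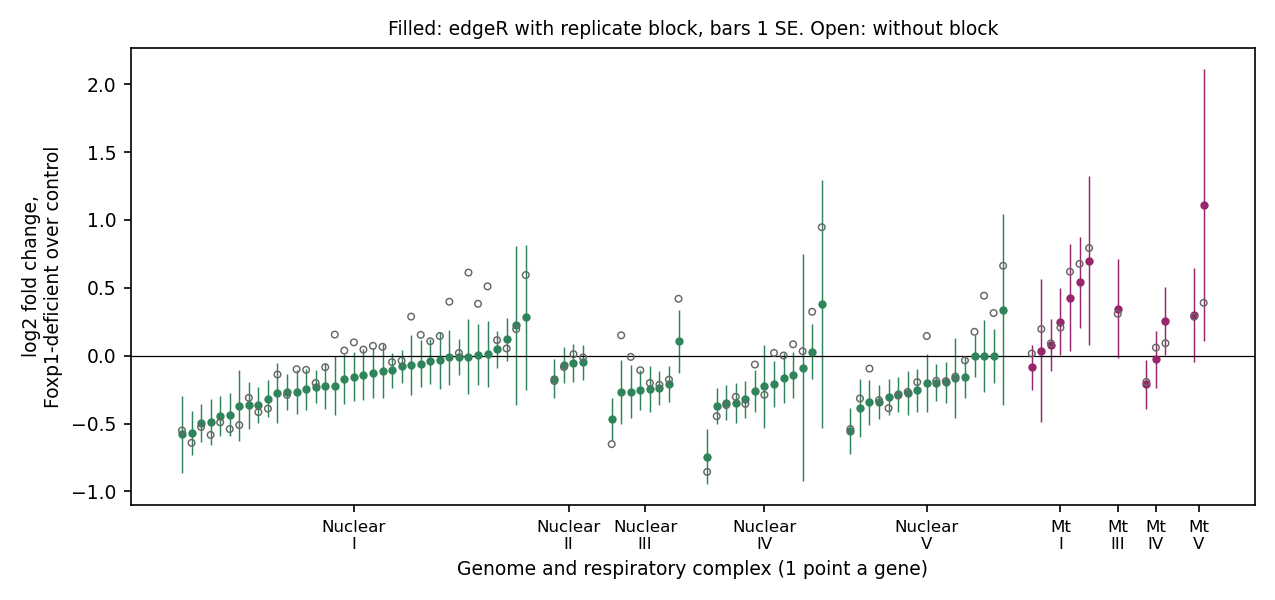
Log2 fold change, Foxp1-deficient over control, of the 92 genes tested, grouped by genome and complex, from edgeR with the replicate number as a block (filled points, bars 1 SE) and without it (open points). With the block 69 of 79 nuclear genes (green) lie below 0 and 10 of 13 mitochondrially encoded genes (purple) above, and most bars of single genes reach or come near 0.

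Single libraries set the direction of the nuclear set in the fit without a block. Log2 fold changes were below 0 for 14 of 79 genes without control 2, 28 without Foxp1-deficient 1 and 31 without Foxp1-deficient 3, but for 67 without control 1, 69 without control 3 and 74 without Foxp1-deficient 2. Without both libraries numbered 2, 78 of 79 nuclear genes were below 0 (50.2% of all genes tested), as they were with the block added (50.7%). In that fit 32 of the 79 had an unadjusted p under 0.05, all lower, where 4.57% of all 15303 genes tested were lower at that p and 11.2% reached it in either direction. After adjustment 0 of the 79 passed, their lowest adjusted p being 0.226 (edgeR quasi-likelihood test), while 30 of all genes did (0.196%). Of the 13 mitochondrial genes 9 were below 0 without those libraries, against 1 of 13 with all 6. The opposite sign of the mitochondrial set in the fit on all libraries thus rested on the libraries numbered 2.

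Genes that build or serve the respiratory chain were counted from lists of the pathway, and 0 of them passed in the edgeR fit, as was so for 0% of all genes tested. Without the block this fit recovered 0% of simulated 4-fold changes, so it cannot show that these genes were unchanged. Of the subunit genes that the symbol rule missed, 6 of 7 tested were below 0, and 7 of 7 with the block. Ndufab1, the acyl carrier protein of complex I, had 61.4, 91.9 and 75.8 CPM across controls and 50.5, 73.8 and 59.5 CPM across Foxp1-deficient libraries, lower in Foxp1-deficient than in control libraries at each number, and a log2 fold change of -0.32 (SE 0.34). Of 75 mitochondrial ribosomal protein genes, which are nuclear and make the organelle's own ribosome, 45 were below 0, and by number 58, 38 and 71 were lower in pairs 1, 2 and 3. Mrpl42 had 52.0, 82.8 and 61.2 CPM across controls and 45.7, 44.9 and 47.9 CPM across Foxp1-deficient libraries and a log2 fold change of -0.50 (SE 0.33, edgeR unadjusted p = 0.175, adjusted p = 0.9998), the lowest p of that list. Of 33 genes for expression of the mitochondrial genome 19 were below 0, and Mrrf, a ribosome recycling factor, had a log2 fold change of -0.78 (SE 0.40). Assembly factors were evenly divided, with 22 of 44 below 0, and Pet100, a complex IV assembly factor, had a log2 fold change of 1.47 (SE 1.01) that Foxp1-deficient 2 carried with 41.1 CPM, against at most 9.45 in the others. Of 13 citric acid cycle genes 9 were below 0, with Suclg1, a succinyl-CoA ligase subunit, at -0.39 (SE 0.34). Of 8 biogenesis regulators 4 were below 0, with Nrf1 at 0.23 (SE 0.34), and Ppargc1a, the coactivator gene best known for mitochondrial biogenesis, reached 7.10 CPM at most and was not tested. Among the 7 other mitochondrially encoded RNAs tested 3 were below 0, and mt-Rnr1, the small ribosomal RNA, had a log2 fold change of 0.77 (SE 0.90).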

How the data were processed

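Ribosome-bound RNA of 6 libraries was counted per gene. The raw counts deposited by the authors are fragments over exons summed by gene symbol, made with featureCounts 1.5.1 (mm10, annotation 86), per the file headers. The command sets no option for strand or for multi-mapping reads. Per the submitters' processing notes DESeq2, deepTools, SAMtools, STAR, Trimmomatic and FastQC were also used, and for their settings the sources used here hold nothing. Exon lengths in bases were deposited in the same table by the authors.

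Groups and replicate numbers came from the sample titles. The members and the gene lists were chosen with earlier results of these data known. Counts were fitted with edgeR 4.0.16 in R 4.3.3 (TMM factors, filterByExpr, quasi-likelihood F test, two-sided, Benjamini-Hochberg adjustment over 14311 genes, threshold 0.05), and the members were read out of that fit. CPM are scaled by TMM, TPM are counts per exon length relative to their sum in the library, and differences within a pair are of log2(CPM + 0.5). Totals of 9710048 to 18958196 counts limit the precision, and floors of 3 counts cover counting error alone, as reads were counted without molecular identifiers.

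The pairing was checked over the genes tested: equally numbered libraries deviated together from their group means, at r = 0.66, 0.63 and 0.68. Between other numbers r was at most 0.078. Deviations within a group sum to 0, so positive values at equal numbers hold the others low, and the latter add no separate support. The numbers were taken to pair the libraries. This comes from the data, as the labels do not state it. Alternatives were RLE and upper quartile factors, library totals, the low-count filter dropped or set at 10 CPM in 3 libraries, mitochondrial rows removed, DESeq2 1.42.0, limma-voom of limma 3.58.1 with quality weights, a replicate block, both libraries numbered 2 left out, and each library left out. Counts of pair directions under other scalings were added after seeing the data. The scripts were tested on simulated data that held effects of the library number by design.

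Named genes are Foxp1, the 13 mitochondrial genes, and for each complex the nuclear gene of highest mean TPM and the 3 of lowest p, the tissue isoforms, up to 6 further genes of lowest p without overlap between groups, and the gene of lowest p in each pathway list. The genes listed under the block, those lower in both libraries numbered 2 and Tnnt2, Actc1, Ckm, Mb and Ppargc1a were named after their values were seen.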

Additional observations from a re-analysis of the deposited data

How the results depend on the processing

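No nuclear or mitochondrially encoded gene passed in the edgeR fit under any size factor, filter, block or left-out library. On simulated data the edgeR fit recovered 0% of 4-fold changes without the block and 53% with it. Those data held effects of the library number by design, so the gain with the block was built in. The 53% applies only if the numbers do pair the libraries, which the labels do not state. The lack of calls without the block therefore does not show that genes were unchanged. Over all genes tested, calls numbered 0 in the edgeR fit on all libraries, and 6 with DESeq2, 169 with DESeq2 and a replicate block, 8 with limma-voom and a replicate block, and 30 with the block and both libraries numbered 2 left out. The block gave 1 call among nuclear genes, Cox8a with DESeq2 (log2 fold change -0.74, adjusted p = 0.0445), and it changed no other call of a member. limma-voom with quality weights put 77 of 79 nuclear and 8 of 13 mitochondrial genes below 0. Of 515 values for 28 named genes, 445 kept their direction and their side of the threshold, 69 in 20 genes had the opposite sign, and 1 came to pass. The cause was not tested. Log2 fold changes of opposite sign were, without the libraries numbered 2, mt-Nd1 -0.091, mt-Nd2 -0.025, mt-Atp6 -0.069, mt-Co3 -0.13, mt-Nd3 -0.10, mt-Nd4 -0.085, mt-Nd6 -0.22, mt-Cytb -0.12, Uqcrc1 -0.18 and Atp5s -0.29, and with the block in addition mt-Nd1 -0.11, mt-Nd2 -0.059, mt-Co1 -0.036, mt-Atp6 -0.11, mt-Co3 -0.18, mt-Nd3 -0.18, mt-Nd4 -0.12, mt-Nd6 -0.25, mt-Cytb -0.15, Uqcrc1 -0.19 and Atp5s -0.29. With quality weights they were mt-Nd1 -0.064, mt-Atp6 -0.031, mt-Co3 -0.14, mt-Nd3 -0.074, mt-Nd4 -0.0040, mt-Nd6 -0.20, mt-Cytb -0.042, Uqcrc1 -0.17 and Atp5s -0.038. With the replicate block they were mt-Co3 -0.028 and mt-Nd6 -0.086 in edgeR, mt-Co3 -0.027 and mt-Nd6 -0.084 in DESeq2 and mt-Co3 -0.0092 and mt-Nd6 -0.083 in limma-voom. Named genes outside the 28 also changed sign with the block in edgeR. They went from 0.40 to -0.013 for Ndufa2, from 0.084 to -0.14 for Cox6a1 and from 0.033 to -0.088 for Cox6a2. For Cox6b1 they went from 0.021 to -0.21, for Cox7a2l from 0.0012 to -0.17 and for Atp5g2 from 0.44 to -0.0037. mt-Nd6 was at -0.035 on library totals, -0.0024 with no filter and -0.0043 with upper quartile factors, and Sdhd at 0.0013 with the stricter filter. With 1 library left out at a time, values that crossed 0 ran as follows: Atp5s -0.32 to 1.03, Cox7b -0.65 to 0.067, mt-Atp8 -0.18 to 0.92, mt-Co1 -0.53 to 0.63, mt-Co2 -1.07 to 0.77, mt-Co3 -0.33 to 0.37, mt-Nd1 -0.071 to 0.31, mt-Nd2 -0.063 to 0.58, mt-Nd3 -0.40 to 0.55, mt-Nd6 -0.55 to 0.40, Ndufa7 -1.20 to 0.22, Sdha -0.23 to 0.10, Sdhc -0.29 to 0.0067, Sdhd -0.43 to 0.28, Uqcrc1 -0.91 to 1.13, Uqcrfs1 -0.38 to 0.050 and Uqcrq -1.74 to 0.76. The median of the nuclear genes ran from -1.12 to 0.66 and that of the mitochondrial genes from 0.023 to 0.63. Outside ribosomal RNA type and mitochondrial rows, nuclear genes took 0.906%, 2.27% and 1.03% of counts in controls and 0.742%, 2.30% and 0.906% in Foxp1-deficient libraries, so the difference between the libraries numbered 2 changed direction. Depth limits mt-Atp8, Cox7b2, Cox8b and Cox8c, which rest on few or 0 counts.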
